A study of Mus musculus with 11 samples.

Results

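The killer lectin-like receptor genes code for C-type lectin-like membrane proteins of NK cells and some T cells, and 30 of them were followed here through sorted epidermal cells of mice with and without Langerhans cells (LCs). The members were all genes of the deposited table whose mouse symbols start with Klra, Klrb, Klrc, Klrd, Klre, Klrg, Klrh or Klri, found by matching Ensembl identifiers to symbols. Klrk1, which codes for NKG2D, was left out by this rule. The 30 members among 52550 listed genes comprised 14 Klra genes (Ly49 receptors), 6 Klrb genes (NKR-P1 receptors), 3 Klrc genes (NKG2 receptors), 2 Klrg genes, 2 Klri genes, and Klrd1, Klre1 and Klrh1 alone in their groups. Klrh1 was listed under its other name Gm156, and 4 members were annotated as pseudogenes.

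Killer lectin-like receptors come in inhibitory and activating forms. Inhibitory forms carry an immunoreceptor tyrosine-based inhibitory motif (ITIM) in the cytoplasmic tail, to which the phosphatases SHP-1, SHP-2 and SHIP-1 bind, whereas activating forms pair with adaptors such as DAP12. Ly49 receptors bind classical MHC class I molecules, CD94/NKG2 heterodimers bind the non-classical molecule Qa-1, and NKR-P1 receptors bind Clec2 proteins, several of which are coded for in the same gene cluster. Dendritic epidermal T cells (DETCs) are the γ/δ T cells of mouse epidermis with a nearly invariant T cell receptor, and are known to carry Ly49E (Klra5) and CD94/NKG2 receptors.

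The libraries fell into 4 groups. LC-/- mice were huLangerin-DTA transgenic mice, in which the human langerin gene drives diphtheria toxin subunit A and which have no LCs from birth on, and the controls were their wild-type (WT) littermates without LC loss. All mice were female and 8 weeks old, and the labels give no strain, while the study names an FVB background for LC-/- mice in passing. Keratinocytes (KCs) were sorted as CD45- cells and DETCs as CD45+ cells, both negative for MHC-II, langerin and c-kit, so the DETC gate held no T cell receptor marker and could take other CD45+ cells. Poly-A RNA was sequenced from KCs of 3 WT (W1 to W3) and 3 LC-/- mice (L1 to L3) and from DETCs of 3 WT (W1 to W3) and 2 LC-/- mice (L2 and L3), with 13491075 to 19750440 reads in genes per library. Values are normalized counts, that is, reads divided by a size factor of the library. W and L numbers follow the labels, which do not say that the KC and DETC libraries of a number came from 1 mouse. The p-values measure the spread between these few libraries. In such bulk libraries, fewer cells of a type and less RNA per cell cannot be told apart.

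The labels were checked on marker genes. Cd207, the gene of langerin, had 21.8, 16.5 and 46.7 normalized counts in WT DETCs and 0 and 4.42 in LC-/- DETCs. In KCs it had 6.15, 26.9 and 15.6 in WT mice and 0 in each of the 3 LC-/- mice. The 10 DETC markers summed to 172704 to 207032 normalized counts in DETC libraries and to 337 to 666 in KC libraries, with Trdc, the constant region of the δ chain, the most abundant by the mean of the 5 DETC libraries. Ptprc was above Trdc in W2, L2 and L3. All 10 had reads in every DETC library. Beside them, the 8 markers of α/β T cells summed to 7782 to 14992 in DETC libraries, with Trbc1 the most abundant by the same mean, although Trac was above it in W2, W3 and L3. The 8 NK cell markers, one of which is the member Klrb1c, summed to 678 to 1134. The most abundant of these was Itga2, which is also a keratinocyte gene with a higher level in KCs, while Cma1 had no read and Ncr1, the defining receptor of NK cells, had 8.25 to 22.1 normalized counts.

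The short coding stretches that hold the ITIM pattern are shown because inhibitory receptors carry this motif. The pattern was searched as I, L, V or S, any residue, Y, any 2 residues, then L or V, in the first 60 codons of the longest annotated coding sequence of each member (GENCODE mouse release 21 on GRCm38). It is a match of letters and not a shown function. Capitals mark the tyrosine codon, and each stretch is written 5′ to 3′ on the coding strand, which is the minus strand of chromosome 6.

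Klrb1b (codons 6 to 11, chr6:128826214-128826231): ctggtcTATgcagattta
Klrc1 (codons 6 to 11, chr6:129678878-129678895): gtcaccTATgcagaactg
Klra5 (codons 6 to 11, chr6:129911429-129911446): gtcactTACtcaactgtg
Klra1 (codons 6 to 11, chr6:130380630-130380647): gtcactTATtcaatggtg
Klri1 (codons 16 to 21, chr6:129717060-129717077): gttacaTACacagagttg
Klri1 (codons 47 to 52, chr6:129716967-129716984): ctaaaaTATggagagctg
Klrg1 (codons 5 to 10, chr6:122282782-122282799): tctatcTATtcaacacta

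The stretch of Klra5 was identical, base for base, in Klra3, Klra6, Klra7, Klra9 and Klra10. No match was found in Klra4, Klra8, Klrb1a, Klrb1f, Klrc2, Klrc3, Klrd1, Klre1, Klrg2, Klrh1 or Klri2. Klrb1c had a match at codons 53 to 58 of an annotated isoform of 271 codons, although its product NK1.1 is known as an activating receptor. For comparison, 5.71% of the 22099 genes with a coding transcript held the pattern in the same window.

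In DETCs the receptor transcripts were dominated by 4 genes. Levels of different genes are compared per kilobase (kb) of annotated exons. Klrb1b, which codes for an inhibitory NKR-P1 receptor of Clec2d, had the highest level, with 2977 ± 207 normalized counts per kb in WT DETCs (SD, n = 3) and 2634 ± 2.53 in LC-/- DETCs (SD, n = 2). Klrd1, which codes for CD94, followed with 2124 ± 516 and 1763 ± 79.6 per kb. Klrc1, which codes for its inhibitory partner NKG2A, had 844 ± 230 and 610 ± 37.1 per kb. Klrb1f, an NKR-P1 receptor gene whose product binds Clec2 proteins, had 665 ± 164 and 450 ± 3.50 per kb. Together these 4 genes made up 84.9% to 86.9% of the summed level per kb of the 29 members without Klrg2 in each DETC library. Their order was the same in every DETC library, although the ranges of Klrc1 and Klrb1f over the WT libraries overlapped.

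**Figure D1:**
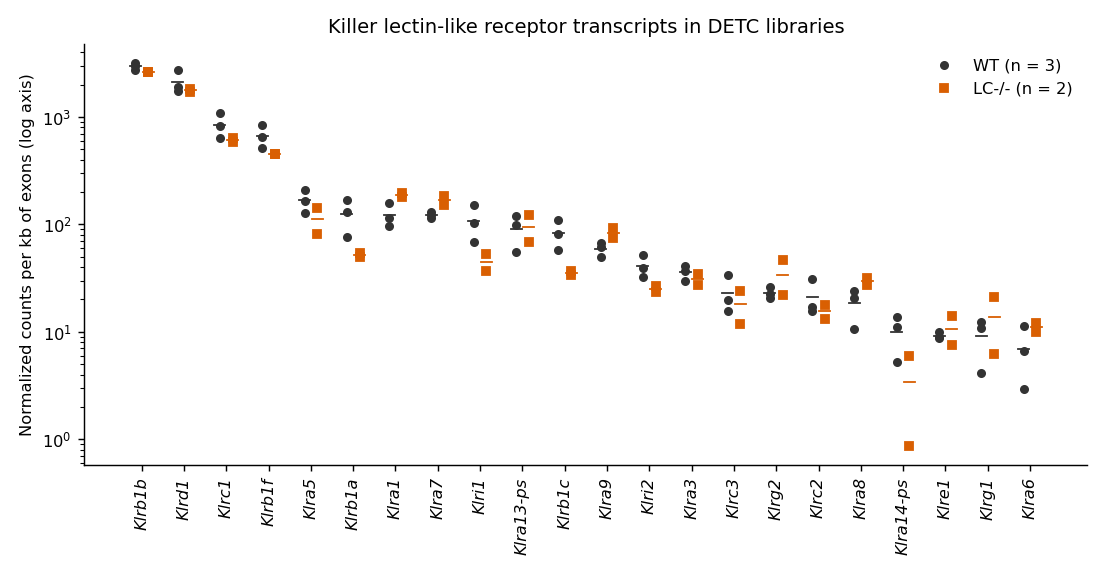
Normalized counts per kb of exons (log axis) of the 22 members with a mean of at least 10 normalized counts in WT or LC-/- DETCs. Each point is a library (circles WT, squares LC-/-) and each short line a group mean. Klrb1b, Klrd1, Klrc1 and Klrb1f stand above all other members in every library.

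A second tier of members lay below them. Klra5, the Ly49E gene, had 167 ± 40.9 normalized counts per kb in WT DETCs, and Klra1 and Klra7, which code for the inhibitory receptors Ly49A and Ly49G, had 122 ± 31.2 and 121 ± 8.53. Klrb1a, an NKR-P1 gene without the ITIM pattern, had 125 ± 46.3, and Klri1, the inhibitory partner of Klre1, had 107 ± 41.7 (SD, n = 3 for each). The ranges of these 5 levels over the WT libraries overlapped, while Klra5 was the highest of the 5 within each WT library. Klrb1c had 82.9 ± 25.9 and the pseudogene Klra13-ps 90.7 ± 32.7 per kb. Klra9 had 59.3 ± 8.67, Klri2, the activating relative of Klri1, had 41.3 ± 10.1, and Klra3 had 36.1 ± 5.80.

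Activating NKG2 genes were scarce beside Klrc1. Klrc2 had 180, 99.0 and 90.4 normalized counts in the 3 WT DETC libraries and 76.7 and 104 in the 2 LC-/- libraries, and Klrc3 had 25.1, 11.6 and 14.6 in WT and 8.74 and 17.7 in LC-/- libraries. Per kb, Klrc1 was 35.1 to 52.4 times Klrc2 over the 5 DETC libraries, and Klrd1 was 2.34 to 2.93 times Klrc1. Annotated exons came to 5.81 kb for Klrc2 and 1.98 kb for Klrc1, so the ratio of Klrc1 to Klrc2 was smaller on the normalized counts themselves. Klrc1 shared 24.7% of its 75-base stretches with Klrc2, and Klrc3 shared 22.7% with Klrc2, so reads of this trio could be split or lost between them, and this was not tested. Klre1 had 34.9, 30.5 and 31.1 normalized counts in WT DETCs and 26.2 and 48.6 in LC-/- DETCs. Of the 2 genes that mark the group, Klrd1 was thus the second most abundant member, while Klre1 was low in every DETC library.

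The remaining Klra genes and Klrg1 were low. Klra8, the gene of the activating receptor Ly49H, had 28.4, 12.4 and 24.3 normalized counts in WT and 32.0 and 37.6 in LC-/- DETCs, and it shared 16.0% of its 75-base stretches with the pseudogene Klra14-ps. Klra14-ps itself had 15.3, 12.4 and 5.83 in WT and 0.971 and 6.63 in LC-/- DETCs. Klra6 had 3.27, 7.43 and 12.6 in WT and 13.6 and 11.1 in LC-/- DETCs. Klrg1, the gene of an inhibitory receptor for cadherins, had 15.3, 5.78 and 17.5 in WT and 8.74 and 29.9 in LC-/- DETCs. These groups overlapped except for Klra8. The other 8 members, namely Klra2, Klra4, Klra10, Klra11-ps, Klra17, Klrb1, Klrb1-ps1 and Klrh1, had at most 13.3 normalized counts in any DETC library, and Klrb1-ps1 had no read in any. A count of 0 allows up to 3 reads per library.

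**Figure D2:**
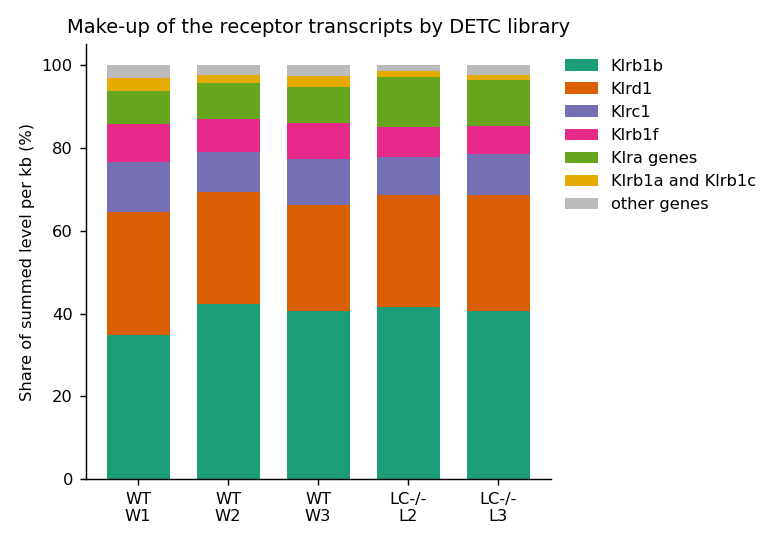
Share of each gene or gene group in the summed level per kb of the 29 members without Klrg2, for each DETC library. The 4 leading genes take 84.9% to 86.9%, and the Klra genes 7.92% to 8.65% in WT and 11.0% to 12.1% in LC-/- libraries.

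The KC libraries held almost none of these transcripts. Of the 30 members, 24 had no read in any of the 6 KC libraries and 5 (Klra1, Klrb1b, Klrb1f, Klrc1 and Klrd1) had 1 to 4 reads over all 6. Against a floor of 3 reads per library, the mean level in WT DETCs was at least 79.8-fold higher than in WT KCs for Klrb1c, at least 76.1-fold for Klra5, at least 64.6-fold for Klrb1a and at least 438-fold for Klrb1f. Of the 19 members that passed the filter (CPM, the reads of a gene scaled to the depth of the library, above 1 in at least 2 of the 11 libraries), 18 were called higher in WT DETCs than in WT KCs by limma (Benjamini-Hochberg adjusted p under 0.05), beside 41.0% of all 14419 tested genes. The same 18-gene count was called higher in LC-/- DETCs than in LC-/- KCs, beside 38.1% of all genes. Members without KC reads passed the filter only through the DETC libraries and had to differ, so these counts are a description of the filter as much as of the cells.

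Klrg2 was the exception. This lectin-like gene of little known function lies apart from the cluster, at chr6:38625693-38637242 (minus strand). It had 595, 657 and 641 normalized counts in WT KCs and 771, 750 and 635 in LC-/- KCs, against 70.9, 77.6 and 89.5 in WT DETCs and 158 and 75.2 in LC-/- DETCs. All 6 KC libraries were above all 5 DETC libraries. The log2 difference between DETCs and KCs was -2.98 ± 0.12 (SE) in WT mice (limma adjusted p = 1.48e-08) and -2.70 ± 0.30 in LC-/- mice (limma adjusted p = 2.67e-04), and genes called lower in DETCs made up 35.1% and 32.1% of all tested genes. The DETC libraries also held keratinocyte transcripts. For the 12 keratinocyte markers, of which Krt5 was the most abundant, the level in a DETC library was at the median 14.4% to 17.4% of that in the KC library with the same label number in W1, W2, W3 and L3, and 23.4% in L2. Klrg2 stood at 11.9% (W1), 11.8% (W2), 14.0% (W3), 21.1% (L2) and 11.8% (L3), within the range of the markers in each. Klrg2 and the median of the markers were both highest in L2.

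**Figure D3:**
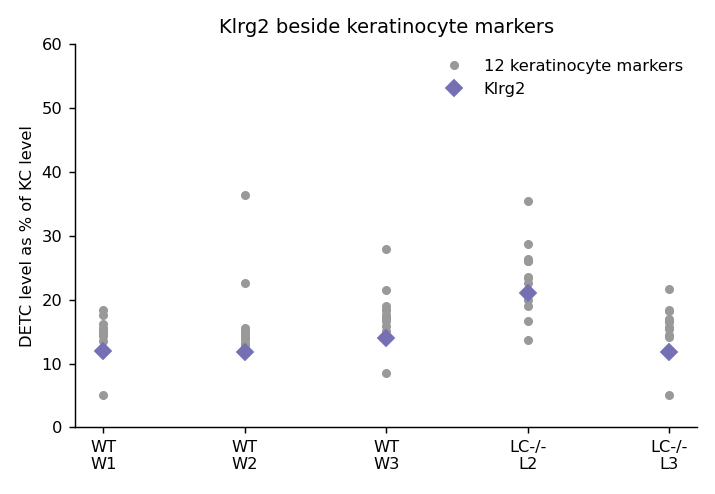
Level in each DETC library as a percentage of the level in the KC library with the same label number, for 12 keratinocyte markers (grey circles) and Klrg2 (diamonds). Klrg2 lies between 11.8% and 21.1%, inside the range of the markers in every pair, and Klrg2 and the median of the markers are highest in L2.

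To see whether DETCs that developed without LCs held another receptor repertoire, LC-/- and WT DETCs were compared. Klrb1c, the gene of NK1.1, was the 1 member of the 19 tested that was called lower in LC-/- DETCs, and none was called higher. Of all tested genes, 0.430% were called lower and 3.13% higher. The split of these calls, 452 higher and 62 lower, was 178 and 85 after quantile normalization, so the balance of directions depended on the scaling. The counts also rested on single libraries, with 342 higher and 28 lower without W1, 63 and 10 without W2 and 42 and 0 without W3. Leaving out L2 or L3 leaves 1 LC-/- DETC library, so counts over all genes are not given for these fits. With limma without the trend, 0 genes were called in either direction. In that fit 1554 genes with a higher and 853 with a lower level had an unadjusted p under 0.05. Of the members, 5 had an unadjusted p under 0.05 with a lower level and 3 with a higher level, beside 6.19% and 13.1% of all tested genes. The median log2 change was -0.20 over the 19 members and 0.02 over all tested genes.

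Klrb1c had 324, 171 and 241 normalized counts in WT DETCs and 100 and 108 in LC-/- DETCs. Both LC-/- libraries were below all WT libraries. The log2 change was -1.18 ± 0.25 (SE; 95% interval -1.77 to -0.59), with a limma adjusted p of 0.0488, close to the threshold. The direction held without each library in turn, with log2 changes of -1.42 to -0.96. The call was lost without W1 (limma adjusted p = 0.0872), W3 (0.139), L2 (0.176) or L3 (0.0693) and held without W2 (0.0493). It was also lost with edgeR (adjusted p = 0.0542), whereas DESeq2 gave an adjusted p of 7.39e-04. Exons of the readthrough gene Gm44511 on the same strand cover 13.9% of the exon bases of Klrb1c and 26.9% of those of Klrb1b. Reads there may have been assigned to neither gene, which was not tested.

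The other 3 tested NKR-P1 genes (Klrb1a, Klrb1b and Klrb1f) were also lower in both LC-/- libraries than in every WT library. Klrb1a had 268, 121 and 206 normalized counts in WT and 85.4 and 78.5 in LC-/- DETCs. Its log2 change was -1.19 (95% interval -1.90 to -0.48), as large as that of Klrb1c but not called (limma adjusted p = 0.0797, and 0.0445 without W2). Klrb1f had 1698, 1040 and 1305 in WT and 916 and 906 in LC-/- DETCs, with a log2 change of -0.54 (95% interval -0.96 to -0.12, limma adjusted p = 0.160, and -0.36 without W1). Klrb1b had 7055, 6142 and 6701 in WT and 5865 and 5873 in LC-/- DETCs. Its log2 change of -0.17 (95% interval -0.39 to 0.04, limma adjusted p = 0.360) was the smallest of the 4, and it was -0.40 after quantile normalization (limma adjusted p = 0.0942). The ratio of Klrb1c to Klrb1a per kb, which does not depend on the size factor of a library, was 0.630 to 0.759 in WT and 0.630 to 0.744 in LC-/- DETCs.

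Klri1 and Klri2, whose products pair with that of Klre1 as inhibitory and activating receptors, showed a like order. Klri1 had 127, 56.9 and 86.5 normalized counts in WT and 31.1 and 44.2 in LC-/- DETCs, and its log2 change was -1.18 ± 0.35 (SE, limma adjusted p = 0.115). Klri2 had 204, 154 and 126 in WT and 91.3 and 105 in LC-/- DETCs, and its log2 change was -0.69 (95% interval -1.21 to -0.17, limma adjusted p = 0.147). Both LC-/- libraries lay below all WT libraries for either gene, and neither was called by limma. DESeq2 on the recovered reads called 4 members lower, namely Klrb1c, Klrb1a (adjusted p = 0.00357), Klri1 (0.0325) and Klrb1f (0.0409), and none higher, beside 1.46% of all genes called lower by DESeq2. It gave no adjusted p for Klrg1, Klre1, Klra8 and Klra3, so these members could not be called by it. edgeR called no member, and with it 7 had an unadjusted p under 0.05 with a lower and 2 with a higher level, beside 8.52% and 11.4% of all genes.

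The CD94/NKG2 genes did not separate by genotype. Klrd1 had 3475, 2245 and 2442 normalized counts in WT and 2187 and 2331 in LC-/- DETCs, and Klrc1 had 2156, 1249 and 1617 in WT and 1157 and 1262 in LC-/- DETCs. For both genes W1 was the highest library, and the 2 groups overlapped. The log2 change was -0.24 for Klrd1 (95% interval -0.64 to 0.16, limma adjusted p = 0.501), -0.43 for Klrc1 (-0.90 to 0.03, limma adjusted p = 0.288) and -0.39 for Klrc2 (-1.11 to 0.33, limma adjusted p = 0.553). These intervals include 0 and also sizeable decreases. Without W1 the log2 changes were -0.05, -0.23 and -0.08. After quantile normalization that of Klrd1 was -0.40. Without W2 it was -0.37, and that of Klrc2 was -0.17 without L2 and -0.61 without L3.

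Among the Ly49 genes the values went mostly the other way. Klra1 had 201, 169 and 276 normalized counts in WT and 318 and 347 in LC-/- DETCs, with a log2 change of 0.65 (95% interval 0.18 to 1.13, limma adjusted p = 0.132). Klra7 had 154, 143 and 164 in WT and 190 and 232 in LC-/- DETCs, with a log2 change of 0.45 (0.09 to 0.82, limma adjusted p = 0.170). Klra9 had 85.1, 63.5 and 78.8 in WT and 118 and 96.2 in LC-/- DETCs, with a log2 change of 0.50 (limma adjusted p = 0.259). For these 3 genes and for Klra8 (log2 change 0.73, and 0.39 without W2, limma adjusted p = 0.368) both LC-/- libraries were above every WT library, and none of the 4 was called. Klra9 shared 12.1% of its 75-base stretches with other Klra genes and Klra1 0.237%.

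Klra5 stood apart from these Ly49 genes in direction. It had 292, 178 and 231 normalized counts in WT and 198 and 114 in LC-/- DETCs, and the 2 groups overlapped (log2 change -0.61, 95% interval -1.25 to 0.03, limma adjusted p = 0.286). Its log2 change was -0.21 without L3 and larger in size than in the fit of all libraries without L2. Klra5 shared no 75-base stretch with another gene. Per kb, Klra5 was 1.84, 1.33 and 1.06 times Klra1 in WT DETCs and 0.785 and 0.414 times Klra1 in LC-/- DETCs, so Klra5 was the higher of the pair in each WT library and the lower in each LC-/- library. Klra3, with 45.8, 51.2 and 37.0 in WT and 34.0 and 43.1 in LC-/- DETCs, and Klra13-ps, with 124, 102 and 57.4 in WT and 126 and 70.8 in LC-/- DETCs, overlapped between genotypes.

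**Figure D4:**
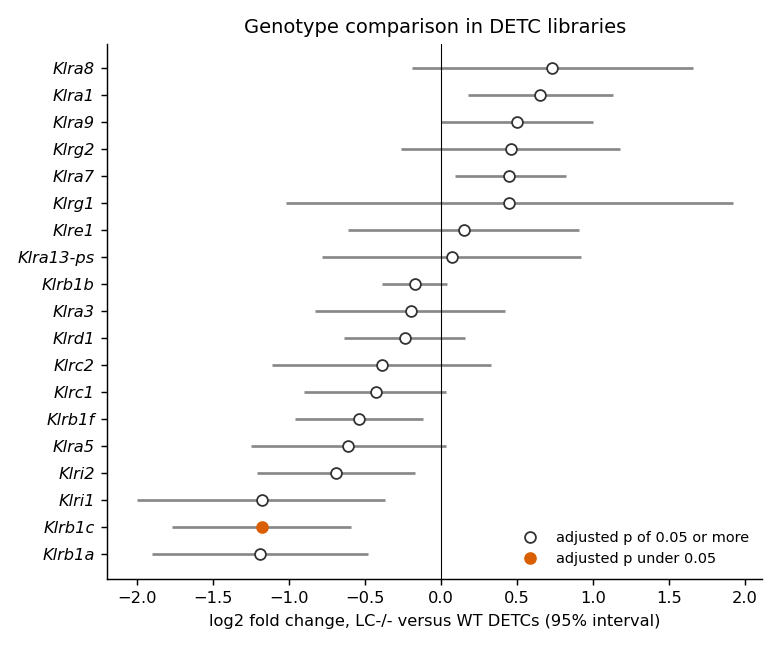
log2 fold change between LC-/- and WT DETCs with its 95% interval for the 19 tested members. The filled point, Klrb1c, is the member called by limma, and the open points are not called. The Klrb1 and Klri genes lie left of 0 and Klra1, Klra7, Klra8 and Klra9 right of it.

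Of the 19 tested members, 6 were below without overlap between the groups (Klrb1a, Klrb1b, Klrb1c, Klrb1f, Klri1 and Klri2), 4 were above (Klra1, Klra7, Klra8 and Klra9) and 9 overlapped. Over all tested genes, 16.5% were below and 21.3% above without overlap. By subfamily, all 4 tested Klrb genes and both Klri genes were below, whereas 4 of the 7 tested Klra genes were above and none was below. These subfamilies were read with the values in view, and no test was made of them. The ITIM pattern did not sort the directions. Of the 10 tested members with the pattern, 4 had a positive and 6 a negative log2 change (median -0.19), and of the 8 coding members without it 3 had a positive and 5 a negative one (median -0.32). The 10 include Klrb1c by its letter match, although its product is known as an activating receptor.

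The log2 changes were also read along the cluster. From Klrb1a to Klra2, 28 of the 30 members lie in 2.64 Mb of chromosome 6 (chr6:128609227-131247362), all but Klrg1 and Klrg2. The Klrb1 genes lie at one end, the Klrd1, Klrc and Klri genes in the middle and the Klra genes at the other end. Klra5, the tested Klra gene nearest to the Klri genes, had a negative log2 change like them, but Klre1 in the middle part had a positive one (0.15). Klra8, Klra9, Klra7 and Klra1 with positive changes lie beyond it, together with Klra13-ps (0.07) and Klra3 (-0.20, or -0.04 without L2 and -0.37 without L3). Among the other genes of the left and middle parts the changes went both ways, with 0.24 for Clec2g, 0.93 for Olr1 and 0.43 for Gabarapl1 against -0.69 for Clec2i and -0.36 for Cd69.

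**Figure D5:**
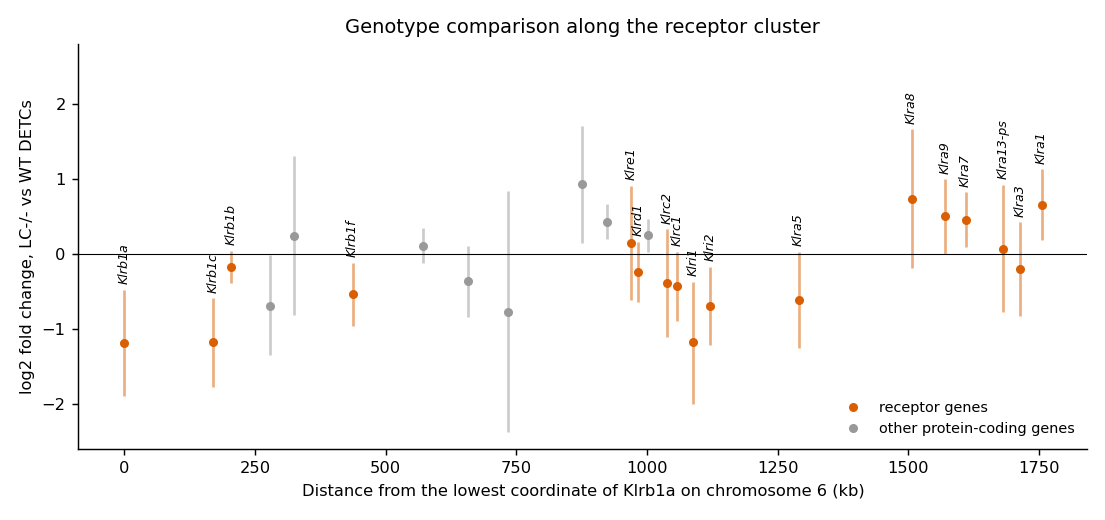
log2 fold change between LC-/- and WT DETCs, with its 95% interval, against the distance in kb from the lowest coordinate of Klrb1a, for 17 tested members (coloured) and 8 other protein-coding genes of the cluster (grey). Members with changes of about -1.18 lie in the left and middle parts, and the group from Klra8 to Klra1 lies at the right.

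Of the 19 other protein-coding genes in the cluster 8 were tested, and none was called in DETCs by limma or edgeR, while DESeq2 called 1 (Gabarapl1) higher. With limma, 3 had an unadjusted p under 0.05 with a higher and 1 with a lower level. By the mean of the 5 DETC libraries the most abundant were Klrk1, Cd69, an early activation and tissue retention receptor, and Gabarapl1, an autophagy gene, followed closely by Clec2d, which was above Gabarapl1 in W1 and W2. Klrk1 had 7449, 7507 and 6823 normalized counts in WT and 8241 and 9057 in LC-/- DETCs (log2 change 0.25, limma adjusted p = 0.204), with both LC-/- libraries above all WT libraries, and no more than 2.10 in any KC library. Clec2d, which codes for the ligand of Klrb1b, had 1635, 1846 and 1800 in WT and 1763 and 2033 in LC-/- DETCs. In KCs, Olr1, a scavenger receptor gene, and Gabarapl1 rose in LC-/- mice by 1.17 (limma adjusted p = 0.0284) and 0.42 (limma adjusted p = 0.0373) on the log2 scale.

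Summed over the 29 members without Klrg2, the level per kb came to 9095, 6502 and 7419 in WT DETCs and to 6328 and 6497 in LC-/- DETCs. W1 stood highest, and W2 was nearly level with the LC-/- libraries. The log2 ratio of the group means was -0.26, or -0.12 without W1, and it was -0.47 when CPM were taken in place of normalized counts. The Klra genes made up 7.92%, 8.65% and 8.65% of the sum in WT and 12.1% and 11.0% in LC-/- DETCs, whereas the Klri genes made up 2.23%, 1.65% and 1.83% in WT and 0.955% and 1.23% in LC-/- DETCs. These shares do not depend on the size factor of a library, and the groups did not overlap in either.

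Markers of the cells in the gate were read beside these values. Of the 10 DETC markers 1 was called lower in LC-/- DETCs by limma and none higher, while 9 had negative log2 changes (median -0.17) and 4 were lower at an unadjusted limma p under 0.05. The called gene was Trdv4, the variable gene of the DETC δ chain, with 11432, 7750 and 10270 normalized counts in WT and 5387 and 4115 in LC-/- DETCs (log2 change -1.04, limma adjusted p = 0.0279), while Cd3e, Ptprc and Itgae had log2 changes of -0.07, -0.05 and 0.03. Trdc, Tcrg-V5 and Tcrg-C1, the other genes of the receptor chains, had log2 changes of -0.52, -0.59 and -0.48 (limma adjusted p = 0.120, 0.0910 and 0.109), and for each both LC-/- libraries were below all WT libraries. DESeq2 called all 4 receptor chain genes lower, and edgeR called Trdv4. The 5 other NK cell markers tested beside Klrb1c had positive log2 changes. Of these Itga2 was called higher (0.84, limma adjusted p = 0.0365), and Gzmk, which was not tested, had no read in LC-/- DETCs. For Gzma, Irf8 and Eomes L3 was above all WT libraries and L2 was not. Gzma had 24.0, 17.3 and 20.4 in WT DETCs, 14.6 in L2 and 96.2 in L3. Ncr1 had 21.8, 8.25 and 12.6 in WT and 19.4 and 22.1 in LC-/- DETCs. Its log2 change was 0.61 (limma adjusted p = 0.517), and the groups overlapped. Of 10 markers of dermal γ/δ T17 cells, with Cd163l1 the most abundant, 2 were called lower by limma (Ccr6 and 5830411N06Rik, log2 changes -1.30 and -0.99). The median log2 change of the 10 was -0.92, and 8 were lower and 0 higher at an unadjusted limma p under 0.05. edgeR called 2 lower and DESeq2 6 (Ccr6, 5830411N06Rik, Blk, Il17a, Il17f and Sox13). The 10 summed to 8240, 10550 and 9345 normalized counts in WT DETCs, against 7885 and 7359 in LC-/- DETCs. More of this sum came from Cd163l1 and Maf, with log2 changes of 0.01 and 0.17, than from the other 8 genes. None of the 8 α/β T cell markers was called by limma, edgeR or DESeq2 or had an unadjusted limma p under 0.05 (0 of 8), and they summed to 10468, 12527 and 11093 normalized counts in WT DETCs, against 7782 in L2 and 14992 in L3. The part of these cells in the receptor values was not tested. Of the 8 mast cell markers 6 had no read in DETC libraries. The others were Kit, the gene of c-kit, and Hdc. Kit had 530, 343 and 573 normalized counts in WT and 427 and 294 in LC-/- DETCs, and Hdc had 4.85 to 25.3 over the DETC libraries. Of the 7 ILC2 markers Areg, which DETCs also express, was called higher by limma and edgeR (0.59, limma adjusted p = 0.0323). DESeq2 called Areg and Il13 higher, and Il13 had a log2 change of 0.63 (limma adjusted p = 0.0900), with both LC-/- libraries above all WT libraries. The 6 ILC2 markers tested had 3 positive and 3 negative log2 changes (median -0.02). Those with negative changes were Il1rl1 (-0.26), Il5 (-0.09) and Calca (-0.61). Of the 9 Langerhans cell markers, 4 MHC class II pathway genes (H2-Aa, H2-Ab1, H2-Eb1 and Cd74) were called lower by limma and edgeR, with log2 changes of -3.03, -2.54, -2.93 and -1.41, and 2 of them (H2-Eb1 and Cd74) by DESeq2. Epcam, also a keratinocyte gene and the most abundant of the list, rose by 0.72. Of the 12 keratinocyte markers 10 had positive log2 changes in DETCs (median 0.29), and 4 were higher and 0 lower at an unadjusted limma p under 0.05. None was called by limma or edgeR, and DESeq2 called Sfn and Dsg3 higher. These markers summed to 91599, 106020 and 107914 normalized counts in WT DETCs, against 146926 in L2 and 96114 in L3, and their part in the values of Klrg2, Itga2 and Epcam was not tested.

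In KCs no member was called between genotypes by limma, edgeR or DESeq2, and 0 had an unadjusted p under 0.05, beside 7.23% of all tested genes called in either direction. Those calls, 775 higher and 267 lower, were 552 and 169 without L2. They rested more on the other libraries, with 5 and 0 without L1, 10 and 6 without L3, 10 and 5 without W1, 7 and 9 without W2 and 200 and 24 without W3. Klrg2, the only member with more than a few reads there, had a log2 change of 0.18 (95% interval -0.04 to 0.41, limma adjusted p = 0.260), and its groups overlapped. Among the markers of cell types, limma called Cd3g (log2 change 1.82, adjusted p = 0.0468), Dsg3 (0.33, 0.0491) and Epcam (0.68, 0.0186) higher in LC-/- KCs and Cd207, H2-Aa, Cd74 and Maf lower. Cd3g, a T cell receptor complex gene, had at most 1.02 normalized counts in WT KCs and 3.15 to 9.92 in LC-/- KCs, and its interaction was called (-2.01, limma adjusted p = 0.0308). The DETC markers as a list did not share this direction in KCs. Of the 10, 5 had positive and 5 negative log2 changes, they summed to 655, 469 and 666 in WT KCs, against 501, 456 and 337 in LC-/- KCs, and DESeq2 did not call Cd3g but called Thy1 lower. In the interaction of population and genotype no member was called by limma, edgeR or DESeq2, beside 0.798% of all genes called by limma. These calls, 89 higher and 26 lower, were 19 and 3 without the trend and 57 and 8 without the DETC library W3. Without the KC library W3, W2, L1 or W1 they were 43 and 18, 47 and 3, 47 and 7 or 49 and 8. Without the KC library L2 they were 91 and 29. An unadjusted limma p under 0.05 was found for Klrb1c, Klrb1a and Klri1, each with a more negative change in DETCs and no KC read, beside 4.04% of all genes with such a p and a negative estimate, and with edgeR for 0 members. The interaction estimates of the 3 thus repeat the change in DETCs (-1.18 for Klrb1c, limma adjusted p = 0.325).

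The genes through which these receptors act were present in DETCs and mostly not called. Of the 16 signalling genes tested, 1 was called lower in LC-/- DETCs by limma and none higher (median log2 change -0.05), and 4 were lower and 0 higher at an unadjusted limma p under 0.05. The gene called by limma and edgeR was Ptpn6, which codes for SHP-1, the phosphatase bound by ITIMs. It had 5477, 4710 and 4845 normalized counts in WT and 2995 and 2855 in LC-/- DETCs, a log2 change of -0.77 ± 0.10 (SE, limma adjusted p = 0.0136), and it fell by 0.49 in KCs (limma adjusted p = 0.0420), where it had at most 291. Ptpn11, the gene of SHP-2, had a log2 change of -0.33 in DETCs (limma adjusted p = 0.115, called with Ptpn6 by DESeq2) and rose by 0.35 in KCs (limma adjusted p = 0.0193), and its interaction was called (-0.68, limma adjusted p = 0.0146). Tyrobp, the gene of DAP12, had 214, 146 and 219 in WT and 184 and 121 in LC-/- DETCs. In KCs it had at most 4.64 normalized counts in WT and 0 in LC-/- libraries, and it was called lower there by limma (adjusted p = 0.0252) but not by edgeR or DESeq2. The adaptors Cd247 and Fcer1g and the kinase gene Lck were the most abundant of the list, with log2 changes of -0.06, -0.16 and -0.01 in DETCs.

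Of the 13 ligand genes 10 were tested, and none was called in DETCs by limma, edgeR or DESeq2 (median log2 change 0.15, with 1 higher and 1 lower at an unadjusted limma p under 0.05). H2-D1, H2-K1 and B2m, which code for classical MHC class I heavy chains and their light chain, were the most abundant, with log2 changes of 0.14, 0.15 and 0.16 in DETCs and 0.01, 0.06 and 0.02 in KCs. Cdh1, the gene of E-cadherin, a ligand of Klrg1, rose in LC-/- KCs by 0.65 on the log2 scale (limma adjusted p = 0.0268). Of the 13 regulator genes none was called in DETCs by limma or edgeR (median log2 change 0.26, with 3 higher at an unadjusted limma p under 0.05), and DESeq2 called Nfil3 and Runx3 higher. The most abundant were Ets1, Nfil3 and Runx3, with log2 changes of -0.01, 0.55 and 0.43 (limma adjusted p = 0.975, 0.0665 and 0.0958). In KCs Prdm1 rose by 0.83 (limma adjusted p = 0.0169) and Bcl11b fell by 0.64 (limma adjusted p = 0.0251). There edgeR and DESeq2 called both, and also Ets1 higher (0.76, limma adjusted p = 0.0860) and Zbtb16 lower (-0.99, limma adjusted p = 0.116). The interaction of Bcl11b was called by limma (0.97, adjusted p = 0.0142), edgeR and DESeq2. For Tcf7 it was called by DESeq2 and not by limma (-0.52, adjusted p = 0.115) or edgeR. Of 11 receptor genes of other families that NK cells carry 10 were tested and none was called in DETCs by limma or edgeR (median log2 change -0.27, with 4 lower at an unadjusted limma p under 0.05), and DESeq2 called Cd96 and Cd244a lower. Cd96, Cd244a and Tigit were the most abundant, with log2 changes of -0.25, -0.29 and -0.39.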

How the data were processed

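The study used cutadapt for trimming, hisat2 for alignment to GRCm38 and featureCounts for gene counts, which the authors then normalized by the median-of-ratios method. The deposited signal is on the scale of counts, unfiltered and not log transformed. Strand and overlap settings of the counting were not given in the sources used here. Each value was a whole multiple of the step of its library (100% of values above 0 within 0.01 reads, largest distance 0.00118), so reads were recovered. The count tests edgeR 4.0.16 and DESeq2 1.42.0 on these reads called 0 and 4 members in DETCs and 483 and 1079 genes in all. A floor of 3 reads covers counting error only.

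Identifiers were matched to GENCODE mouse release 21 (52403 of 52550), whose exons gave lengths and sequences. The reference follows C57BL/6, whereas the study names an FVB background for LC-/- mice and the labels give no strain. Klra and Klrb1 genes differ between strains, and the effect on read assignment was not tested. The main test was limma 3.58.1 (eBayes with trend) in R 4.3.3 on log2(normalized count + 1), within a population or between populations of 1 genotype, for 14419 genes with CPM above 1 in at least 2 of 11 libraries, with Benjamini-Hochberg adjustment and calls at 0.05. Fold changes on this scale understate those of low genes. Every member was accounted for. Values per library are given for members with a mean of at least 10 in WT or LC-/- DETCs, and of the signalling, ligand, regulator and other receptor lists and the cluster neighbours the genes called between genotypes and the 3 with the highest DETC mean are named. Genes of the marker lists were named after their values were seen. The members and lists were chosen with earlier results of these data known. Libraries are named by the number in their labels, which do not state that a number is 1 mouse. The fits were tested on simulated data. A marker gene of the dermal γ/δ T17 list is not reported here.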

Additional observations from a re-analysis of the deposited data

How the results depend on the processing

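The count of members called lower in LC-/- DETCs, 1 in the main fit, was 4 with DESeq2 and 0 with edgeR, quantile normalization, a pseudocount of 8, no filter, no trend or 1 fit over all 11 libraries. It was 0 to 2 when each DETC library was left out in turn. The log2 ratio of the summed receptor level was then -0.36 to -0.12, a setting added after the data were seen. In every setting run, the log2 change of Klrb1c was negative, with adjusted p of 7.39e-04 to 0.334. With 1 library left out in turn, the log2 change took either sign for Klra13-ps (-0.34 without L2 to 0.49), Klre1 (-0.28 without L3 to 0.58), Klrg1 (-0.38 without L3 to 1.28, and -0.0018 without W2) and Klrg2 (-0.07 without L2 to 0.99), none of them called. The counts of members called in KCs, between populations and in the interaction kept within 1.5 times under each alternative. With the label number as replicate block, 18 members were called higher and 1 lower in DETCs than in KCs in WT mice, and the interaction called none. Between the KC and the DETC library of 1 number, deviations from the group mean correlated over 14419 genes with r of -0.053 (W1), 0.067 (W2), 0.117 (W3), 0.143 (L2) and 0.117 (L3). Pairing was taken to need a value above 0.1 in every pair or labels that name a shared mouse. With 3 of 5 above 0.1 neither held, so pairing was not shown, and the main fits have no block. In the 2 LC-/- DETC libraries deviations from the group mean mirror each other, so the 5 values are not independent. They cannot decide whether the libraries were paired. The split of calls over all genes moved with quantile normalization in the interaction (89 higher and 26 lower against 70 and 48) and between populations (5906 and 5059 against 4693 and 6658 in WT, 5497 and 4629 against 4196 and 6401 in LC-/- mice), where it shifted the median of all genes from 0.07 to -0.24 in WT and from 0.08 to -0.28 in LC-/- mice. The 2 LC-/- DETC libraries and levels under 50 normalized counts limit the precision.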
